A study of Mus musculus with 8 samples.

Results

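Notch signalling genes were followed in lung epithelium that had lost the Hippo kinases Mst1 and Mst2. The genes are 10, taken by name: the ligands Jag1, Jag2 and Dll1, the receptors Notch1, Notch2 and Notch3, the targets Hes1, Hey1 and Nrarp, and Lfng, which modifies the receptors. All 10 were found, each with 1 probe set carrying that symbol alone, among 19938 genes. In the knockout, the ligand Jag2, the receptor Notch3 and the modifier Lfng were higher, by 1.32-fold, 1.33-fold and 1.19-fold, and the targets Hes1, Hey1 and Nrarp did not pass the test. Under 21 alternative settings of the test, Jag2 passed in 20, Notch3 in 17 and Lfng in 9.

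RNA was measured on 8 single-colour Affymetrix arrays, 4 of control and 4 of knockout cells, all from mouse lungs at E18.5, shortly before birth. The labels call the knockout Mst1/2 CKO, a conditional deletion of both kinases by ShhCre, a recombinase active where Shh is expressed, which includes the epithelial progenitors of the lung. Neither the alleles of the control animals nor the number of animals behind an array is stated by the labels, so the spread between arrays may be partly technical. The cells were selected with magnetic beads against the surface protein Epcam, a procedure that enriches epithelial cells without removing every other type.

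Notch is a receptor that neighbouring cells switch on by contact. A Jagged or Delta ligand on a cell binds Notch on the next, the metalloprotease Adam10 and then the gamma-secretase complex cut the receptor, and its freed inner part joins the DNA-binding protein Rbpj and a Mastermind-like coactivator to switch on Hes and Hey repressors. In the airways Notch is known to favour secretory over ciliated cells and to restrain neuroendocrine cells, and in vessels Notch3 is known as a receptor of pericytes and smooth muscle.

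All values are log2 expression, and differences are written as knockout minus control, followed by the standard error (SE) from limma, a linear model with variances moderated over all genes. A gene passed when its Benjamini-Hochberg adjusted p over the 19938 genes was under 0.05. Readings of different probe sets do not compare the amounts of 2 RNAs: the brightest gene of a list, the probe set with the highest reading, is named only as a rule for which gene to show. In bulk RNA, fewer cells of a type and less RNA per cell cannot be told apart.

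The arrays had medians of 7.21 to 7.30. Epcam did not pass (0.01, SE 0.097, adjusted p = 0.949), and the mean of 6 epithelial markers ran from 11.45 to 11.61 in control and from 11.43 to 11.59 in knockout arrays. Genes of other cell types were also measured well above the lowest values of the table. The mean of 8 mesenchymal markers was 8.96 to 9.39 in control and 9.27 to 9.77 in knockout arrays, and that of 8 endothelial markers 9.23 to 9.60 and 9.64 to 9.69. The endothelial means did not overlap between the groups (exact two-sided permutation p = 0.0286, the smallest that 70 assignments allow, and adjusted p = 0.15 over 7 marker lists), and the other lists had exact permutation p of 0.0857 or more. After adjustment over 7 lists a single list at the smallest p cannot pass. Stk4, the gene of Mst1, was lower in the knockout (−0.30, SE 0.076, adjusted p = 0.0188, a call that ended at adjusted p = 0.0592 without knockout replicate 3), but where its probe set lies relative to the deletion is not known. Stk3, the gene of Mst2, was not analysed here. Of the remaining lists, beside 8.60% of all genes higher and 10.2% lower, 1 of 6 epithelial markers rose and 1 fell, 1 of 6 leukocyte markers fell, 1 of 4 mesothelial markers rose, and neither of the measured erythroid markers passed. Their brightest members were Krt8 (0.27, adjusted p = 0.0367, not passed once control 1, 2 or 3 or knockout 1, 2 or 3 was taken out, at 0.0570 to 0.110), Lyz2, which alveolar type 2 cells also express (−0.93, adjusted p = 4.69e-05), Msln (0.75, adjusted p = 3.15e-05) and Alas2 (0.23, adjusted p = 0.130). Xist, a transcript of female cells, was high in 4 arrays (12.30 to 12.43), low in 3 (5.85 to 6.33) and between them in knockout replicate 1 (10.31).

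Of the 10 Notch genes 3 rose and 0 fell in limma's test, and 7 did not pass, with 3 higher and 0 lower also at an unadjusted p under 0.05. Over all genes 18.8% passed, 8.60% higher and 10.2% lower. The share of the 10 genes was 30%, all of it higher. It rests on 3 genes, and whether it departs from the shares over all genes was not tested. The median difference of the 10 was 0.15, beside −0.0158 over all genes, and the median size of a difference was 0.16, beside 0.09. In Jag2, Notch3 and Lfng all 4 knockout values lay above all 4 control values, a lack of overlap seen in this direction in 10.2% of all genes and in either direction in 22.1%.

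**Figure D1:**
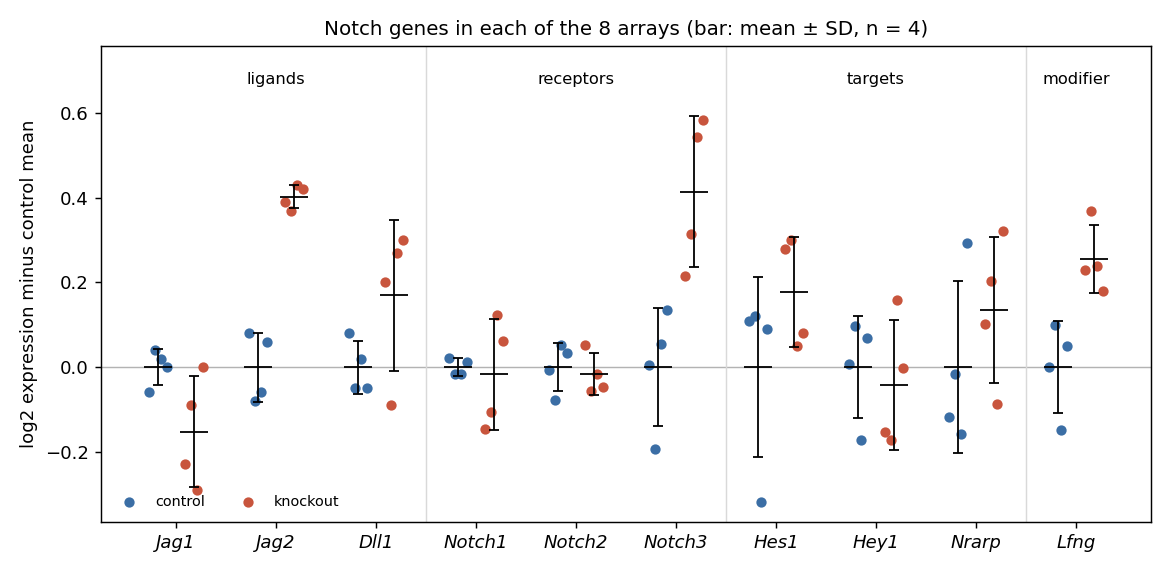
The 10 Notch genes in each array, as log2 expression minus the mean of the 4 control arrays (vertical axis), with control in blue, knockout in red and bars for mean ± SD. Knockout points of Jag2, Notch3 and Lfng lie wholly above the control points, and those of the other genes overlap them.

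Of the ligands, Jag2 rose and the others did not pass. Jag2, a Jagged ligand found in airway epithelium, read 8.94, 8.78, 8.80 and 8.92 in the control arrays, listed by replicate number here and throughout, against 9.25, 9.23, 9.29 and 9.28 in the knockout. The knockout arrays sat close together and clear of every control array. Jag2 thus rose 1.32-fold (0.40, SE 0.058, adjusted p = 7.01e-04), with an interval of 0.27 to 0.53 at 95% confidence.

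Jag1, the other Jagged ligand, read 8.97, 9.07, 9.05 and 9.03 in control and 8.80, 8.94, 8.74 and 9.03 in knockout arrays. Knockout replicate 4 lay within the control range, and its 3 companions lay under that range. The difference did not pass (−0.15, SE 0.072, adjusted p = 0.194, interval −0.31 to 0.01).

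Dll1, a Delta ligand, read 7.02, 6.89, 6.96 and 6.89 in control and 7.14, 6.85, 7.21 and 7.24 in the knockout. Knockout replicate 2 was the lowest of the 8 arrays while the other knockout arrays were above the control arrays. Dll1 did not pass (0.17, SE 0.087, adjusted p = 0.226, interval −0.02 to 0.36), but it passed without knockout replicate 2 (0.26, adjusted p = 0.0252).

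Within each array the ligands were also compared, since a constant level of a probe set cancels when differences between genes are compared between groups. An unequal response of 2 probe sets does not cancel. Dll1 read low, at a control mean of 6.94 under array medians of 7.21 to 7.30, and background is unknown. Jag2 minus Jag1 was −0.28 to −0.02 in control and 0.25 to 0.55 in knockout arrays, a shift of 0.55 (exact two-sided permutation p = 0.0286, adjusted p = 0.0429). Jag2 minus Dll1 shifted by 0.23 (exact permutation adjusted p = 0.0429), and Dll1 minus Jag1 by 0.32 (exact permutation adjusted p = 0.0686). The adjustment covers 6 such pairs of ligands or of receptors, chosen after their values were seen, and no smaller p than 0.0286 is possible with 4 arrays a group.

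Among the receptors Notch3 stood apart. It read 8.73, 8.53, 8.78 and 8.86 in control and 8.94, 9.04, 9.27 and 9.31 in the knockout. Knockout replicates 3 and 4 were the highest and knockout replicate 1 was the closest to the control arrays. Notch3 rose 1.33-fold (0.41, SE 0.098, adjusted p = 0.0133, interval 0.20 to 0.63). Without knockout replicates 3 and 4, a setting chosen after seeing the data, Notch3 differed by 0.26 and did not pass (SE 0.095, adjusted p = 0.11).

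Notch1, the receptor studied most widely, read 9.76, 9.72, 9.72 and 9.75 in control and 9.59, 9.63, 9.86 and 9.80 in knockout arrays. The control arrays were tightly placed and the knockout arrays lay on either side of them, replicates 1 and 2 below and 3 and 4 above. Its difference did not pass (−0.02, SE 0.069, adjusted p = 0.895, interval −0.17 to 0.13).

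Notch2, a receptor present in the distal lung epithelium, read 10.47, 10.40, 10.53 and 10.51 in control and 10.53, 10.42, 10.46 and 10.43 in the knockout. The groups overlapped nearly completely (−0.02, SE 0.056, adjusted p = 0.857), and the interval of −0.15 to 0.10 bounds a change in either direction. Notch3 minus Notch1 shifted by 0.43 and Notch3 minus Notch2 by 0.44 (exact permutation adjusted p = 0.0429 for each), while Notch2 minus Notch1 overlapped between the groups (exact permutation adjusted p = 0.971).

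Markers of pericytes, smooth muscle and mesenchyme were read beside Notch3. Of 7 pericyte and smooth muscle markers 2 rose, 0 fell and 5 did not pass, where 8.60% of all genes rose, and the list mean did not separate the groups (0.23, exact permutation p = 0.114). The list mean was 7.58 to 7.86 in control and 7.75 to 8.13 in knockout arrays, and it ordered the knockout arrays as Notch3 did, with replicates 3 and 4 the highest. The mesenchymal, leukocyte, erythroid and mesothelial means had the same order, so it is not particular to pericytes and smooth muscle. Pdgfrb, the receptor that marks pericytes, read 8.42, 8.43, 8.66 and 8.94 in control and 8.77, 9.10, 9.47 and 9.38 in the knockout (0.57, SE 0.16, adjusted p = 0.0297), and the pericyte proteoglycan Cspg4 differed by 0.47 (SE 0.12, adjusted p = 0.0245). Both are the list's only members that passed and were picked out with their values in view. Of the smooth muscle genes, the myosin Myh11 differed by 0.42 (SE 0.16, adjusted p = 0.101), and Tagln and Cnn1 each by −0.11 (adjusted p = 0.459 and 0.411). The Pdgfrb call ended once control 1, 2 or 3 or knockout 2, 3 or 4 was taken out (adjusted p = 0.0507 to 0.0899), and the Cspg4 call once control 1 or 2 or knockout 2 or 3 was taken out (adjusted p = 0.0504 to 0.0777). The brightest member of the list, Acta2, the actin of smooth muscle, did not pass (0.22, SE 0.13, adjusted p = 0.295), and the lowest, Rgs5, read 5.77 to 5.91 in control and 5.90 to 6.12 in knockout arrays.

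With the pericyte and smooth muscle mean as a covariate, a setting chosen after seeing the data, the Notch3 difference was 0.19 (SE 0.077, adjusted p = 0.162), and with the mesenchymal mean 0.18 (SE 0.097, adjusted p = 0.337). Jag2 kept its call under both settings, at 0.36 (adjusted p = 0.0122) and 0.37 (adjusted p = 0.0221). Lfng was no smaller, at 0.31 and 0.29, but did not pass (adjusted p = 0.0553 and 0.116). Over all genes 2342 passed with the pericyte and smooth muscle mean and 1725 with the mesenchymal mean, against 3746 without. Both means ran higher in the knockout, by 0.23 and 0.38, so they are partly confounded with the genotype. Which cells the Notch3 and Jag2 differences come from was not tested. Of 8 mesenchymal markers 3 rose, 0 fell and 5 did not pass, beside 8.60% of all genes that rose. The filament protein Vim, the brightest, was among those that rose (0.35, SE 0.062, adjusted p = 0.00265).

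**Figure D2:**
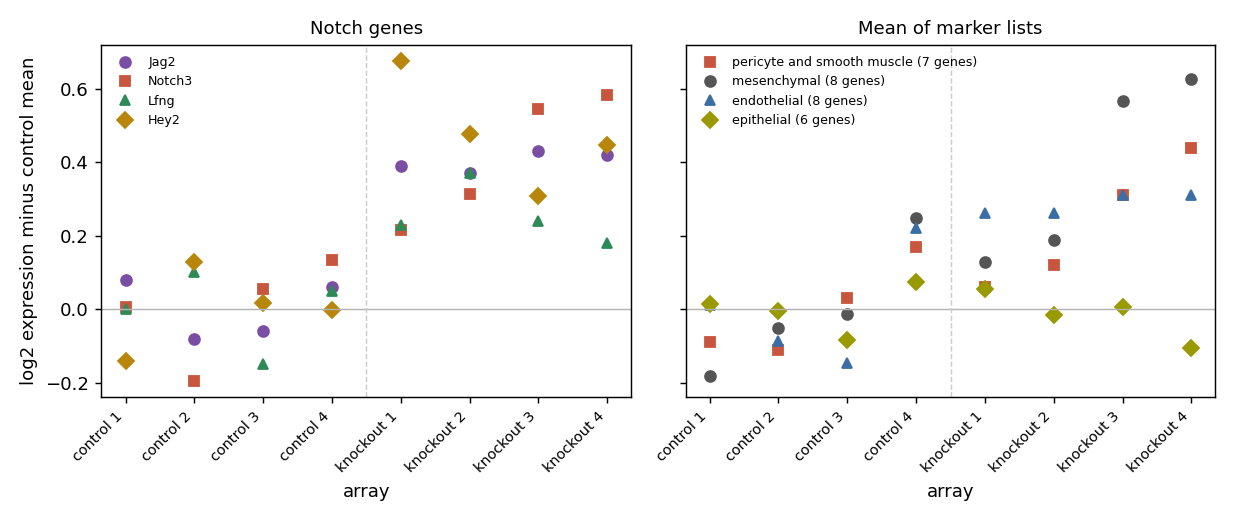
Log2 expression minus the control mean in each of the 8 arrays (horizontal axis), for Jag2, Notch3, Lfng and Hey2 on the left and the means of 4 marker lists on the right. Notch3 and the pericyte and mesenchymal means are highest in knockout replicates 3 and 4, Hey2 is highest in knockout replicate 1, and Jag2 is level over the knockout arrays.

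Endothelial cells also carry Notch receptors and ligands, and their markers were read too. Of 8 endothelial markers 4 rose, 0 fell and 4 did not pass, beside 8.60% of all genes that rose. Pecam1, an adhesion protein of endothelium, differed by 0.44 (SE 0.098, adjusted p = 0.00985), the angiopoietin receptor Tek by 0.45 (SE 0.088, adjusted p = 0.00456) and its relative Tie1 by 0.41 (SE 0.089, adjusted p = 0.00793), named after their values were seen and without overlap between the groups. Tie1 read 8.82, 8.63, 8.73 and 8.91 in control and 9.01, 9.09, 9.32 and 9.31 in the knockout, with replicates 3 and 4 the highest, as for Notch3. Pecam1, Tek and Cdh5 also had replicates 3 and 4 the highest in the knockout, and Esam, Kdr, Cldn5 and Emcn did not. Esam ran the opposite way over the knockout arrays, at 11.03, 10.92, 10.67 and 10.40. Esam, the brightest over the 8 arrays, differed by 0.47 (SE 0.13, adjusted p = 0.0306). This call ended once control 1, 2 or 3 or knockout 1, 2 or 3 was taken out (adjusted p = 0.0563 to 0.0948). In the control arrays alone Cdh5 read higher, at a mean of 10.43 against 10.29 for Esam, so the rule favoured a gene that rose. The 4 markers that did not pass were Cdh5 (0.15, adjusted p = 0.337), Kdr (0.17, adjusted p = 0.395), Cldn5 (0.28, adjusted p = 0.0836) and Emcn (−0.07, adjusted p = 0.747). The endothelial mean did not overlap between the groups, so as a covariate it cannot be told apart from the genotype, and 567 of all genes passed with it, against 3746 without. In that fit the differences were 0.29 for Jag2 (SE 0.098, adjusted p = 0.196), 0.21 for Notch3 (SE 0.16, adjusted p = 0.711) and 0.19 for Lfng (SE 0.13, adjusted p = 0.644). The genes known best from endothelium did not pass with all arrays. Notch4 differed by 0.22 (SE 0.075, adjusted p = 0.0637), and it passed without knockout replicate 1 (0.27, adjusted p = 0.0321). Its knockout arrays (8.23, 8.33, 8.53 and 8.42) lay above its control arrays (8.12, 8.05, 8.23 and 8.21), where 8.23 is shared only by rounding. Such a lack of overlap in this direction was seen in 10.2% of all genes. The ligand Dll4 differed by −0.09 (SE 0.079, adjusted p = 0.510).

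The direct targets that report Notch activity in many tissues did not pass. Hes1, a repressor that keeps progenitors undifferentiated, read 10.04, 10.05, 9.61 and 10.02 in control and 10.21, 10.23, 9.98 and 10.01 in knockout arrays. Control replicate 3 was well below the rest, knockout replicates 1 and 2 were the highest, and knockout replicates 3 and 4 lay just below the other control arrays. The difference was 0.18 (SE 0.11, adjusted p = 0.312, interval −0.06 to 0.41).

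Hey1, a related repressor, read 8.09, 8.18, 7.91 and 8.15 in control and 7.93, 7.91, 8.24 and 8.08 in the knockout, so the groups covered the same range. It differed by −0.04 (SE 0.088, adjusted p = 0.803, interval −0.24 to 0.15). Nrarp, an ankyrin-repeat protein that limits Notch signalling in a feedback loop, read 7.31, 7.41, 7.27 and 7.72 in control and 7.53, 7.63, 7.34 and 7.75 in the knockout. The fourth replicate was the highest of each group, and the difference of 0.14 (SE 0.11, adjusted p = 0.479, interval −0.11 to 0.38) was smaller than the spread within a group.

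Lfng encodes lunatic fringe, a glycosyltransferase of the Golgi that adds a sugar to Notch and thereby favours activation by Delta over Jagged ligands. It read 8.63, 8.73, 8.48 and 8.68 in control and 8.86, 9.0, 8.87 and 8.81 in the knockout. Every knockout array was above every control array, with knockout replicate 4 the closest. Lfng rose 1.19-fold (0.26, SE 0.070, adjusted p = 0.0281, interval 0.10 to 0.41). The call ended once control 1 or 3 or knockout 1, 2 or 3 was taken out (adjusted p = 0.0526 to 0.0846), and with arrays centred on their medians (adjusted p = 0.0646).

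Rbpj binds the letters TGGGAA, more tightly as GTGGGAA, and Tead factors, the partners of the Hippo effectors Yap and Taz, bind CATTCC. These letters were searched on both strands of RefSeq promoter windows of build GRCm38.p6, from 250 bases before to 50 after a gene's start. GTGGGAA occurred in 6.38% of the 32851 windows, TGGGAA, which every GTGGGAA contains, in 25.6% and CATTCC in 14.7%. Of the 10 Notch genes 8 have a window, and 1 of them, Lfng, held GTGGGAA. The targets Hes1 and Hey1 have no window here, so their promoters were not searched. Notch1 alone among the 8 held CATTCC, and Jag2 and Notch3 held none of the 3 motifs in this window. Of 32 other pathway genes with a window 6 held GTGGGAA, among them the targets Hey2 and Hes5, which are shown beside Lfng because they carry it on each strand. A gene counted when any of its windows matched, and some genes have up to 3. These counts of genes are therefore not in the same unit as the 6.38% of single windows. Capitals mark matches to any of the 3 motifs. The windows are Lfng at chr5:140607091-140607390 (plus strand), Hey2 at chr10:30842734-30843033 (minus strand) and Hes5 at chr4:154960673-154960972 (plus strand), each written 5′ to 3′ along its gene.
Lfng: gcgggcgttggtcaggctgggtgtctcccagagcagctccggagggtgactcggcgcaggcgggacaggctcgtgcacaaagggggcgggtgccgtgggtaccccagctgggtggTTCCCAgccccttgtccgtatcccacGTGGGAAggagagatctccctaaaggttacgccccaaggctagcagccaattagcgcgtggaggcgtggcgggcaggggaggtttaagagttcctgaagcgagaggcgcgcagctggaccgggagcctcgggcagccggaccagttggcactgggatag
Hey2: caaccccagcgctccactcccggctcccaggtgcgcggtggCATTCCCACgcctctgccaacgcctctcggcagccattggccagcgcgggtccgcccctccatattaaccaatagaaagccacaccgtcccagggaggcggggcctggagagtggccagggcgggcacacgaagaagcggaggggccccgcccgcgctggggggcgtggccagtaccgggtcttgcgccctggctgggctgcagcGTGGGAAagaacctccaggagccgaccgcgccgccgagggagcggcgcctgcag
Hes5: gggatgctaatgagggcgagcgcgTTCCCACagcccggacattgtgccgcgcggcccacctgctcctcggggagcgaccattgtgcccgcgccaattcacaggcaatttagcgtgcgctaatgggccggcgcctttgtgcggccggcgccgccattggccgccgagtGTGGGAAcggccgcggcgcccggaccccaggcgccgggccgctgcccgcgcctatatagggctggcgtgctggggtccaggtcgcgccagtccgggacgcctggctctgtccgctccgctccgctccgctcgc
In the Lfng window GTGGGAA began 109 bases before the start, and TGGGAA on the opposite strand 135 bases before it. In the Hey2 window the opposite-strand GTGGGAA began 207 bases before the start and overlapped the CATTCC that began at 209. The other GTGGGAA began 4 bases before the start and ran across it. Such matches are letters in a window and do not show binding.

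Hey2, which has these matches, was the Hes or Hey gene that changed. It read 6.40, 6.67, 6.56 and 6.54 in control and 7.22, 7.02, 6.85 and 6.99 in knockout arrays, with every knockout array above every control array and replicate 1 the highest. Hey2 rose 1.39-fold (0.47, SE 0.087, adjusted p = 0.00300). The difference was 0.57 with the pericyte and smooth muscle mean as a covariate (adjusted p = 0.00786), 0.57 with the mesenchymal mean (adjusted p = 0.0156), and 0.57 with the endothelial mean, where it did not pass (SE 0.16, adjusted p = 0.106). Whether the low control values are near background is not known, so the size may be a lower bound.

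Hes5, whose window also carries GTGGGAA on each strand, read 8.06, 7.80, 8.06 and 8.04 in control and 7.96, 7.97, 7.94 and 8.12 in the knockout, and the groups overlapped. It did not pass (0.01, SE 0.074, adjusted p = 0.973, interval −0.16 to 0.17), and its sign turned under 10 of 21 alternative settings. Heyl, a target known from vascular smooth muscle, did not pass either (0.04, SE 0.069, adjusted p = 0.761), with a sign that turned under 5 of 21. Hey2 was the only 1 of 7 further Hes and Hey genes that passed, a share of 14.3% beside 18.8% of all genes.

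Around the 10 genes, 42 of 44 other pathway genes were measured, and the remaining 2 were not analysed here. Of the 42 genes 4 rose, 4 fell and 34 did not pass beside 18.8% of all genes that passed, a share near the background. Their median difference was −0.03. The count of genes that rose was 2 with the replicate number as a block and 2 to 5 when 1 array was left out, and that of genes that fell 2 with the block and 2 to 4.

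**Figure D3:**
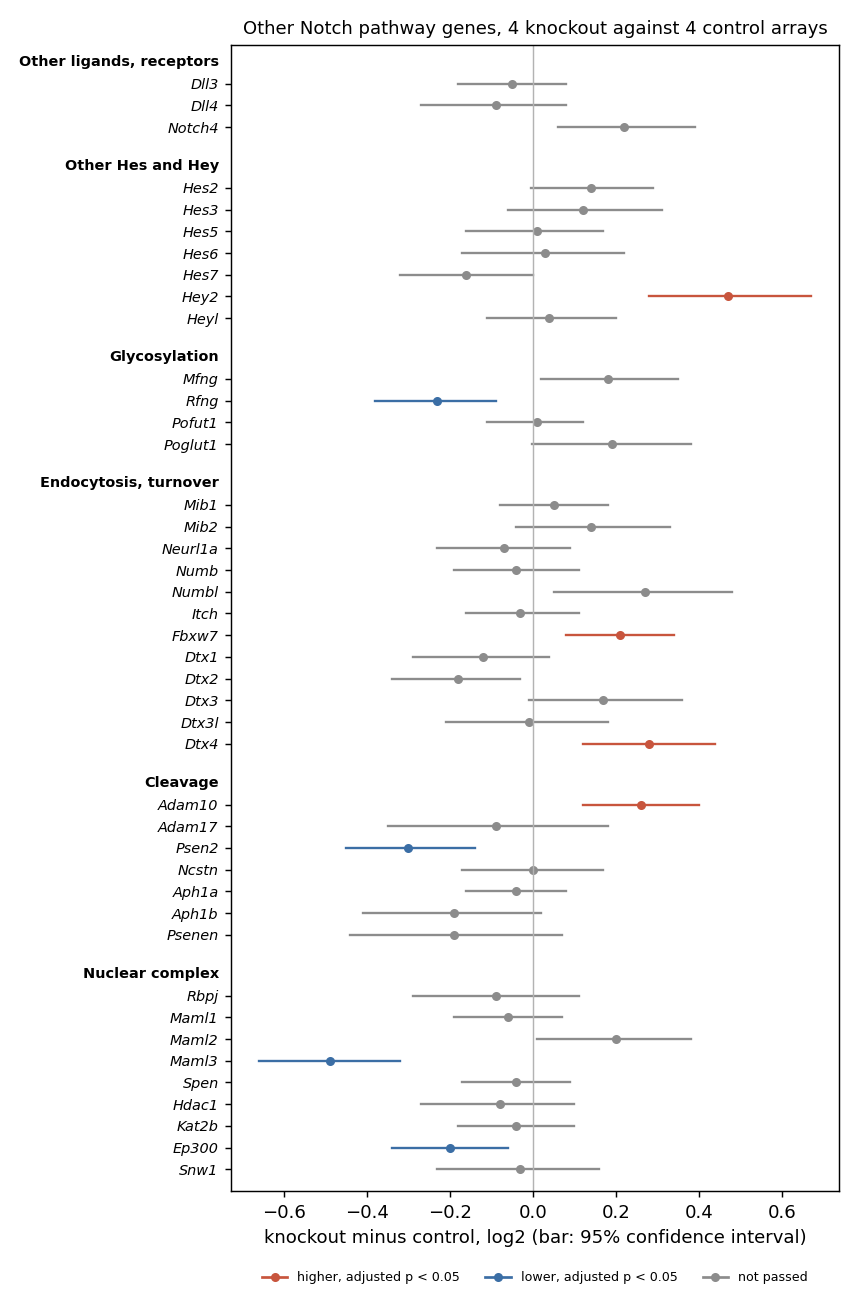
Differences in log2 expression (horizontal axis, points) with 95% confidence intervals (bars) for 42 other Notch pathway genes, by role. Hey2, Fbxw7, Dtx4 and Adam10 are higher and Rfng, Psen2, Maml3 and Ep300 lower among intervals that mostly include 0.

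Upstream of the receptor, Rfng, the radical fringe, a glycosyltransferase of the same family as Lfng, fell by 0.23 (SE 0.066, adjusted p = 0.0305). It read 8.37, 8.26, 8.34 and 8.18 in control and 7.96, 8.02, 8.08 and 8.15 in the knockout, so the groups did not overlap, and the call ended once control 1, 2 or 3 or knockout 1, 2 or 3 was taken out (adjusted p = 0.0516 to 0.0874). The third fringe, Mfng, is part of the 42 and did not pass.

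Of 7 measured genes of the cleavage step 1 rose and 1 fell. Adam10, which makes the first cut, read 10.56, 10.47, 10.38 and 10.54 in control and 10.82, 10.75, 10.76 and 10.65 in the knockout and rose 1.20-fold (0.26, SE 0.063, adjusted p = 0.0150). Psen2, a catalytic subunit of gamma-secretase, read 8.25, 8.51, 8.24 and 8.26 in control and between 7.98 and 8.05 in all 4 knockout arrays, and fell 1.23-fold (−0.30, SE 0.070, adjusted p = 0.0126). Neither gene's groups overlapped, and both calls held when any 1 array was left out. The other 5 measured cleavage genes did not pass, among them Adam17, a protease related to Adam10 (−0.09, SE 0.12, adjusted p = 0.703).

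In the nuclear complex the largest change of the 42 genes was a fall. Maml3, a Mastermind-like coactivator, read 9.45, 9.40, 9.39 and 9.27 in control and 8.76, 8.82, 8.91 and 9.06 in the knockout, each knockout array below each control array, and fell 1.40-fold (−0.49, SE 0.075, adjusted p = 9.72e-04). It kept its call under 20 of 21 alternative settings, the exception being the endothelial covariate (−0.43, adjusted p = 0.163). Ep300, an acetyltransferase used by many transcription factors, fell by 0.20 (SE 0.063, adjusted p = 0.0467), which no longer passed after removal of any array other than knockout replicate 1 (adjusted p = 0.0507 to 0.141). Rbpj, the DNA-binding core of the complex, did not pass (−0.09, SE 0.091, adjusted p = 0.603).

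Among regulators of turnover 2 of 12 rose and 0 fell, and these 16.7% lie near the 18.8% of all genes that passed. Dtx4, a ubiquitin ligase of the Deltex family, read 9.21, 9.22, 9.33 and 9.09 in control and 9.41, 9.54, 9.42 and 9.61 in the knockout (0.28, SE 0.071, adjusted p = 0.0196), and its call ended without control replicate 4 or without knockout replicate 2 (adjusted p = 0.0529 and 0.0568). Fbxw7, which marks active Notch for destruction, rose by 0.21 (SE 0.057, adjusted p = 0.0279), a call that ended once control 1, 3 or 4 or knockout 1, 2 or 3 was taken out (adjusted p = 0.0521 to 0.0850). With the mean of all Fbxw7 probe sets the difference was 0.13 (adjusted p = 0.149).

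Notch is known to choose between airway cell types, so their genes were read beside it. Part of the secretory and ciliated genes fell in the knockout. Of 7 secretory genes 3 fell, 0 rose and 4 did not pass, of 9 ciliated genes 6 fell, 0 rose and 3 did not pass, and of 7 measured neuroendocrine genes 1 fell, 0 rose and 6 did not pass, with 0 higher in all 3 lists at an unadjusted p under 0.05 in limma as well. Over all genes 10.2% fell and 18.8% passed in either direction, and the neuroendocrine share of 14.3% lies near that background. The median differences were −0.46, −0.30 and −0.10.

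**Figure D4:**
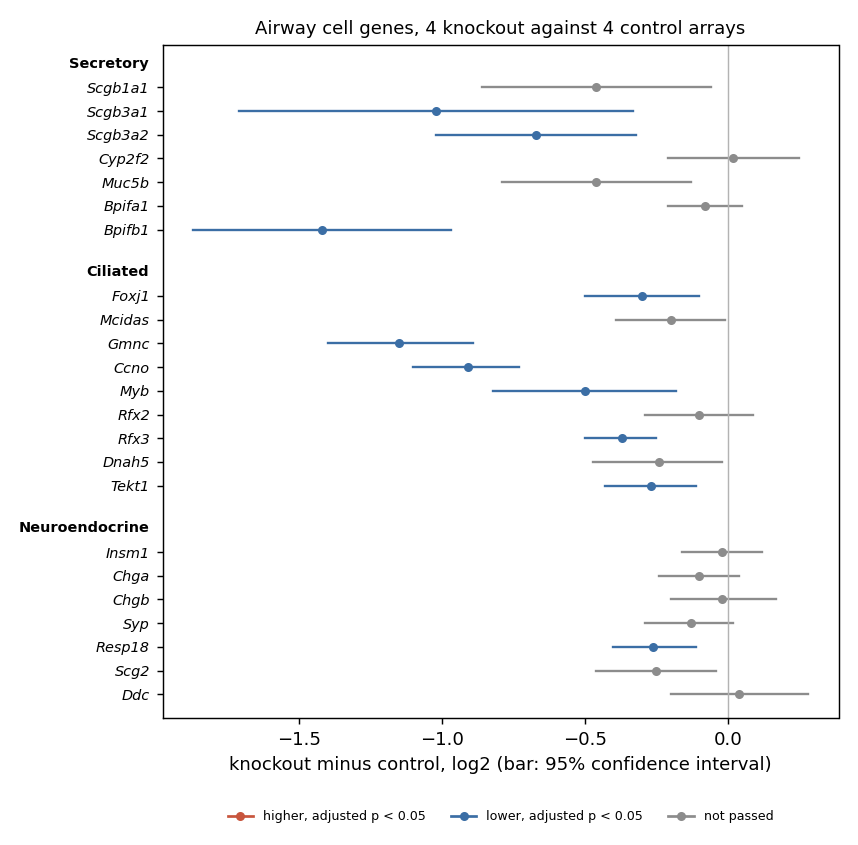
Differences in log2 expression (horizontal axis, points) with 95% confidence intervals (bars) for airway secretory, ciliated and neuroendocrine genes. Most genes of each list lie below 0, with Bpifb1 at −1.42 and Gmnc at −1.15, while neuroendocrine genes run from −0.26 to 0.04.

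Of the secretory genes, Bpifb1, a protein of airway mucus, read 6.78, 7.92, 7.08 and 7.58 in control and 6.03, 5.87, 5.99 and 5.80 in the knockout (−1.42, SE 0.20, adjusted p = 6.29e-04). Scgb3a2, a secretoglobin of early club cells, fell 1.59-fold (−0.67, SE 0.16, adjusted p = 0.0124), with knockout replicate 4 (9.92) inside the control range of 9.88 to 10.28. Scgb3a1, named after its value was seen, fell by 1.02 (SE 0.31, adjusted p = 0.0436), a call that ended once control 1, 2 or 3 or knockout 2, 3 or 4 was taken out (adjusted p = 0.0531 to 0.124). The club cell gene Scgb1a1 did not pass (−0.46, SE 0.18, adjusted p = 0.114), but it passed without control replicate 1 (−0.59, adjusted p = 0.0462). Cyp2f2, a cytochrome of club cells, did not pass either (0.02, SE 0.10, adjusted p = 0.933).

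Of the ciliated genes, Gmnc, which starts the multiciliated programme, read 6.82, 7.15, 7.16 and 7.30 in control and 5.95, 6.12, 5.70 and 6.07 in the knockout and fell 2.21-fold (−1.15, SE 0.11, adjusted p = 6.86e-05). Ccno, needed to multiply centrioles in the same programme, fell 1.88-fold (−0.91, SE 0.083). Foxj1, the regulator of motile cilia, fell by 0.30 (SE 0.090, adjusted p = 0.0421), with knockout replicate 4 at 8.67 within the control range of 8.64 to 8.80, and its call was lost after removal of any control array or of knockout 1, 2 or 3 (adjusted p = 0.0638 to 0.121). The count of ciliated genes that fell was 3 once control 2, 3 or 4 or knockout 1 was taken out, and 8 without knockout replicate 4.

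The neuroendocrine genes gave little signal. Resp18, a protein of secretory granules, differed by −0.26 (SE 0.065, adjusted p = 0.0189) at readings of 4.56 to 4.95, low in the table, and its call ended once control 2 or 3 or knockout 1 or 2 was taken out (adjusted p = 0.0527 to 0.0586). Scg2, a granin, did not pass (−0.25, SE 0.094, adjusted p = 0.0943) but did without knockout replicate 4 (−0.31, adjusted p = 0.0318).

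The genes whose profiles over the 8 arrays were closest to those of the ligand, receptor and target with the highest readings were found by the root mean square difference of values centred on each gene's mean. Closest to Jag2 were Lrp4, a co-receptor at the neuromuscular junction (0.026), Rangap1, a nuclear transport factor (0.033), and Mprip, a myosin phosphatase partner (0.033), against a range of 0.50 in Jag2 itself. They differed by 0.38, 0.39 and 0.42, sizes that follow from their selection by likeness to Jag2. Jag2 had the highest reading of the ligands over all 8 arrays, while in the control arrays Jag1 read higher (mean 9.03 against 8.86). The readings of Notch2 spanned 0.13, and its closest profiles, Olfr304, Mrpl24 and 4930513O06Rik (0.020 to 0.025), were likewise flat, as their selection requires. Those closest to Hes1 were Zkscan1, Mtmr2 and Wars, less close at 0.064 to 0.072 against a range of 0.62.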

How the data were processed

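Log2 expression values of 35556 probe sets on 8 arrays were used as deposited by the authors. The log2 scale was read from the range of the values, and no label or file header names the background correction or normalization. Of the probe sets, 21789 carry 1 gene symbol, 1621 several and 12146 none. Each of 19938 genes was represented by its single-symbol probe set with the highest mean over the 8 arrays. No detection calls were used, so background is unknown. Groups were compared with limma 3.58.1 in R 4.3.3 (lmFit and eBayes, no covariate), with Benjamini-Hochberg adjustment over all genes, after the code was tested on simulated data. Single values and list means had exact permutation tests over 70 assignments. Precision is limited by how many arrays there are.

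The genes and lists were chosen with earlier results of these data known. Named were the 10 genes, Stk4 and Stk3, the further pathway genes Dll4, Notch4, Hes5, Hey2, Heyl and Rbpj and every one that passed, the 2 smallest p of each airway list with Scgb1a1 and Foxj1, Epcam, the brightest gene of each marker list and the 3 profiles most like Jag2, Notch2 and Hes1. Other genes named were chosen after their values were seen. Alternatives covered single arrays left out, scaling, filters, probe sets, array weights, marker covariates and the replicate number as a block. Promoter sequences are RefSeq's, build GRCm38.p6.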

Additional observations from a re-analysis of the deposited data

Results flagged for a closer look

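In 112 groups of 4 arrays, 9 had 1 array set apart from the other 3 by more than Dixon's 95% critical value, where chance alone gives about 1 in 20. Among the Notch genes this was Hes1 in control replicate 3, at 9.61 against 10.02 to 10.05. Among other pathway genes it was Hes5 in control replicate 2 (7.80 against 8.04 to 8.06) and in knockout replicate 4 (8.12 against 7.94 to 7.97), Fbxw7 in control replicate 2 (7.14 against 6.99 to 7.01) and Psen2 in control replicate 2 (8.51 against 8.24 to 8.26). Stk4 was set apart in control replicate 2, at 9.84 against 9.59 to 9.62. Scgb3a1 was set apart in knockout replicate 1, at 7.98 against 6.85 to 7.03. Msln was 12.52 in knockout replicate 4 and 12.60 in each of the other knockout arrays. The mean of the leukocyte markers was 10.28 in knockout replicate 4, against 9.94 to 9.99.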

How the results depend on the processing

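The count of Notch genes that rose, 3, became 1 with the mesenchymal or the pericyte and smooth muscle mean as a covariate or without knockout replicates 3 and 4, and 0 with the endothelial mean (limma, 0 by adjusted p); it was 2 to 3 when single arrays were left out. Of the other pathway genes, the 4 that rose became 2 without knockout replicates 1 and 4 or 3 and 4 and with the pericyte mean, 1 with the mesenchymal and 0 with the endothelial mean (2 to 5 over single arrays left out). The 4 that fell became 2 with all probe sets tested or without knockout replicates 3 and 4, 1 without knockout replicates 1 and 4 and with the mesenchymal or pericyte mean, and 0 with the endothelial mean (2 to 4). The 3 secretory genes that fell became 0 with the endothelial mean (2 to 4). The 6 ciliated genes that fell became 3 with all probe sets tested and with the mesenchymal or pericyte mean, and 2 with the endothelial mean (3 to 8). The neuroendocrine count of 1 became 2 with array weights and 0 with genes above the median level or the endothelial mean (0 to 2). The cause was not tested. Signs turned only for genes that had not passed: Notch1 (0.01 without knockout replicates 1 and 4, 0.0046 with quantile normalization, −0.07 to 0.02 over single arrays left out), Nrarp (−0.17, endothelial mean), Hes5 (−0.04 without knockout replicates 1 and 4 and with array weights, −0.0042 with median centring, −0.01 with quantile normalization, −0.05, −0.08 and −0.08 with the mesenchymal, endothelial and pericyte means, −0.03 without knockout replicates 3 and 4, −0.06 to 0.03 over single arrays left out), Heyl (−0.01 with array weights and the endothelial mean, −0.07 with the other means, −0.04 without knockout replicates 3 and 4), Rbpj (0.02 with the pericyte mean, 0.03 without knockout replicates 3 and 4), Epcam (−0.12, endothelial mean, −0.04 to 0.09 over single arrays left out) and Acta2 (−0.05, −0.15 and −0.02 with the 3 means).

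No sign of pairing by replicate number was seen: deviations of same-numbered arrays correlated at 0.06, 0.10, −0.08 and 0.04 for numbers 1 to 4, and not every array correlated best with its own number. The labels name no pairing, and these correlations cannot exclude one. With the number as a block, 3 Notch genes, 2 other pathway genes, 4 secretory genes (lower), 5 ciliated genes (lower) and 1 neuroendocrine gene (lower) passed in the directions given above, and 2 other pathway genes fell. Settings with the pericyte mean and without knockout replicates 3 and 4 were chosen after seeing the data.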
